A study of Homo sapiens with 6 samples.

Results

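The 9 genes described here encode ubiquitin ligases of the endoplasmic reticulum (ER) membrane (RNF139, RNF185, RNF5, TMEM129 and MARCH6) and ER membrane proteins that bring VCP or a ubiquitin-conjugating enzyme to them (VIMP, UBXN4, FAF2 and AUP1). They were taken by gene name from a table of 57820 annotated genes, each was found on 1 row, and all 9 of the 9 passed the minimum of 10 for the mean normalised count that 14889 genes reached. The RNA-seq libraries of polyadenylated RNA came from U2OS, an established line of human osteosarcoma cells, after 4 h with 5 µM NMS-873, an allosteric inhibitor of the ATPase VCP, or with 0.05% DMSO, its solvent. There were 3 libraries per treatment, from 1 cell line with no genetic change named in the labels.

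ER-associated degradation removes misfolded or unneeded proteins from the ER. A membrane ligase marks the protein with ubiquitin, and VCP, also called p97, pulls it into the cytosol for the proteasome. The HRD1 ligase serves many such proteins, while the ligases described here act on narrower sets, among them enzymes and regulators of sterol synthesis. VCP is soluble, and membrane proteins with a VCP-binding motif or a UBX domain hold it at the site of extraction.

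The libraries held between 21132311 and 22488952 reads in annotated genes, so that the least abundant of the 9 genes, TMEM129, still had a normalised count of at least 319 in each. The normalised count is the number of reads after scaling to spike-in RNA. Of the libraries, NMS-873 replicate 1 stood apart from the others of its treatment, at a chi-square per degree of freedom of 7.36 and 7.81 against them, where replicates 2 and 3 gave 1.79. DMSO replicate 3 gave 3.56 and 3.63 against the others, which gave 1.53 between them. Of the osteoblast-lineage genes, RUNX2, ALPL, SPP1 and COL1A1 were detected. Their means lay from 0.656 (RUNX2) to 167 FPKM (COL1A1) with NMS-873 and from 1.27 (RUNX2) to 225 FPKM (COL1A1) with DMSO. FPKM is reads per kilobase of gene on a common depth scale. RUNX2, ALPL and COL1A1 fell, but the libraries of ALPL overlapped and it did not pass in the authors' comparison (adjusted p = 0.16). Of the epithelial markers EPCAM was at 1.34 FPKM with NMS-873 and 1.40 with DMSO, CDH1 at 0.254 with NMS-873 and 0.252 with DMSO, and KRT19 at 0.0326 with NMS-873 and 0.0385 with DMSO. The leukocyte marker PTPRC was at 0.0414 FPKM with NMS-873 and 0.0716 with DMSO. The median gene tested was at a log2 fold change of -0.10. With equal library totals in place of the spike-in RNA the median was again -0.10. Spike-in RNA made up 0.382%, 0.372% and 0.367% of reads with NMS-873, against 0.375%, 0.386% and 0.359% with DMSO. In bulk RNA, fewer cells and less RNA per cell cannot be told apart, and neither was tested.

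With NMS-873, 5 of the 9 genes rose, 1 fell and 3 did not pass the test (limma, Benjamini-Hochberg adjusted p under 0.05 over all genes tested). Of all genes tested, 14.9% rose and 33.0% fell, which makes 47.9% in all. Rises made up 31.1% of all calls, 52.4% with size factors from the tested genes in place of the spike-in RNA, and 42.9% after quantile normalisation; under these scalings 6 of the 9 rose and 0 fell, and 5 rose and 1 fell (AUP1 in place of TMEM129). The largest rise was that of VIMP, at 2.06-fold, and the other 4 rises, of RNF185, MARCH6, RNF139 and UBXN4, lay between 1.14-fold and 1.23-fold. TMEM129 was the 1 gene that fell, and RNF5, FAF2 and AUP1 did not pass. The median log2 fold change of the 9 was 0.19, and that of all genes tested was -0.10. In 7 of the 9 the libraries of the treatments did not overlap, as in 53.6% of all genes tested. Without NMS-873 replicate 1, again 5 rose and 1 fell. Whether replicates were separate cultures is not stated in the labels, so the spread between libraries could be technical. The p-values reflect only that spread, and mostly as a variance trend fitted over all genes tested. Its prior degrees of freedom were 250.84, so each gene's own spread counted for little. With no variance trend the 5 rises and the fall still passed, at larger adjusted p. These were 0.000111 for VIMP, 0.01 for MARCH6, 0.0129 for RNF139, 0.0161 for RNF185, 0.0449 for UBXN4 and 0.0299 for TMEM129 (limma).

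**Figure D1:**
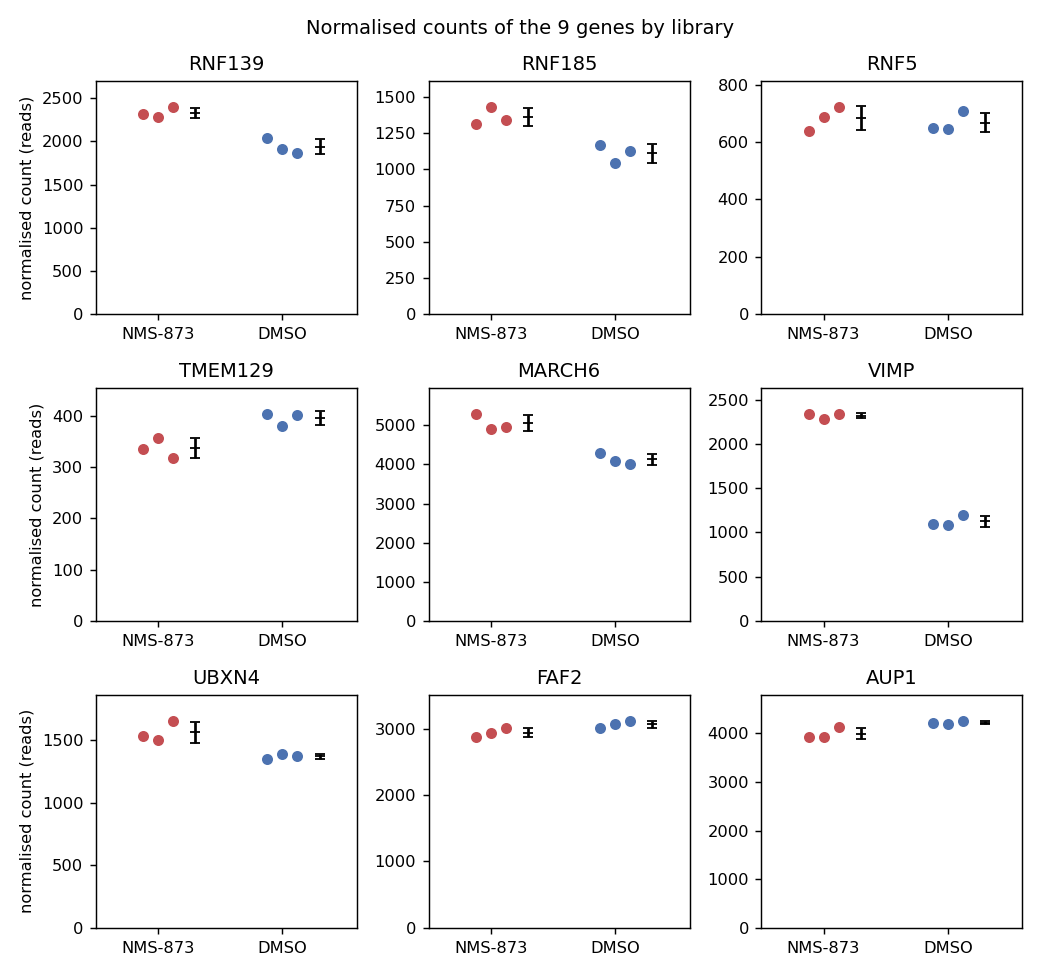
Normalised counts (reads, vertical axes from 0) of each of the 9 genes in the 3 NMS-873 libraries and the 3 DMSO libraries; each point is a library, and the bar beside the points is the mean with its SD. VIMP lies between 2281 and 2339 with NMS-873 and between 1084 and 1196 with DMSO, and the points of RNF5 and FAF2 overlap between treatments.

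RNF139 (ENSG00000170881.4; chromosome 8, 125486979 to 125500155, plus strand, hg19), also called TRC8, is a ligase with many membrane spans. Its normalised counts were 2312, 2279 and 2398 with NMS-873, against 2036, 1908 and 1871 with DMSO. Every NMS-873 library was above every DMSO library, and RNF139 rose 1.20-fold (log2 fold change 0.27, SE 0.0548, limma adjusted p = 1.21e-05). HM13, the signal peptide peptidase that works with RNF139 in human cells, averaged 4532 ± 119 with NMS-873 and 4259 ± 77.2 with DMSO and did not pass (log2 fold change 0.09, adjusted p = 0.161). HMOX1, which encodes the RNF139 client heme oxygenase, rose 1.59-fold, with averages of 775 ± 38.8 with NMS-873 and 485 ± 15.6 with DMSO.

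MARCH6 (ENSG00000145495.10; chromosome 5, 10353815 to 10440500, plus strand) is the human counterpart of yeast Doa10 and degrades squalene monooxygenase, an enzyme of cholesterol synthesis. It had the highest normalised counts of the 9 with NMS-873, at 5293, 4909.9 and 4953 with NMS-873, against 4290.4, 4094 and 4009 with DMSO. The treatments did not overlap, and the rise was 1.22-fold (log2 fold change 0.29, SE 0.0539, adjusted p = 1.16e-06). SQLE, which encodes squalene monooxygenase, rose 3.47-fold, with averages of 9804 ± 210.0 with NMS-873 and 2821 ± 62.4 with DMSO. Of 2 other MARCH6 clients, PLIN2, a lipid droplet protein, rose (log2 fold change 0.21) although its libraries overlapped, and RGS2, a regulator of G protein signalling, was at a log2 fold change of -0.23 and did not pass (adjusted p = 0.0747). PLIN2 did not pass in the authors' own comparison (adjusted p = 0.0587). UBE2J2, a ubiquitin-conjugating enzyme that MARCH6 and TMEM129 use, did not pass, at 889 ± 23.8 with NMS-873 and 855 ± 94.6 with DMSO.

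RNF185 and RNF5 are small paralogous ligases anchored by their C-terminal ends, and both act in the degradation of the chloride channel CFTR. RNF185 (ENSG00000138942.11; chromosome 22, 31556168 to 31603005, plus strand) had 1314, 1431 and 1344 normalised counts with NMS-873, against 1169, 1041 and 1126 with DMSO. It rose 1.23-fold with no overlap between treatments (log2 fold change 0.29, SE 0.0584, adjusted p = 5.55e-06). RNF5 (ENSG00000204308.6; chromosome 6, 32146131 to 32151930, plus strand) had 639.6, 686 and 722 normalised counts with NMS-873, against 649, 647 and 708 with DMSO. Its libraries overlapped, and its log2 fold change of 0.03 had a 95% interval of -0.10 to 0.16 (adjusted p = 0.72). With size factors from the tested genes in place of the spike-in RNA it passed, at 0.13 (adjusted p = 0.044), and over the 17 alternatives its adjusted p lay between 0.044 and 0.933. The processed copy RNF5P1 averaged 0.664 normalised counts.

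Within each library the ratio of RNF185 to RNF5 does not depend on the size factors. In FPKM it was 1.22, 1.24 and 1.10 with NMS-873, against 1.07, 0.954 and 0.943 with DMSO, so all 3 NMS-873 ratios were above all 3 DMSO ratios. The averages were 1.19 ± 0.0717 with NMS-873 and 0.989 ± 0.0689 with DMSO (SD, n = 3 each), a 1.20-fold difference. A two-sided exact permutation test of the log2 ratio gave p = 0.1, which is the smallest that 3 against 3 libraries allow, and an adjusted p = 0.2 over the 2 ratios tested, so the difference did not pass. TMEM259 (membralin) and TMUB1, which form an ER complex with RNF185, did not pass, at log2 fold changes of 0.03 and 0.00. CYP51A1, a sterol synthesis enzyme that this complex degrades, had 2.93-fold more transcript with NMS-873 and passed the test. Of the proteins reported as RNF5 clients, the amino acid transporters SLC38A2 and SLC1A5 rose 2.26-fold and 1.57-fold, and TMEM173 (STING) was 1.42-fold lower at 50.7 ± 12.0 normalised counts with NMS-873 and 71.3 ± 5.08 with DMSO. TMEM173 was not called lower with size factors from the tested genes, after quantile normalisation, with no variance trend or without NMS-873 replicate 2, where RGS2 was the 1 client called lower. TMEM173 also did not pass in the authors' own comparison (adjusted p = 0.1). ATG4B, also in the client list, was lower in every NMS-873 library, at a log2 fold change of -0.12, and did not pass (limma adjusted p = 0.065).

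TMEM129 (ENSG00000168936.6; chromosome 4, 1717679 to 1723085, minus strand) is a ligase known for the removal of MHC class I molecules through Derlin-1 in cells with cytomegalovirus protein US11. Its normalised counts were 335, 357 and 319 with NMS-873, against 404, 380.3 and 402 with DMSO. All NMS-873 libraries were lower, and TMEM129 was 1.17-fold lower with NMS-873 (log2 fold change -0.23, SE 0.0781, adjusted p = 0.00906). This call was the least firm of the 6. The authors' deposited table gives it an adjusted p of 0.0599, and it did not pass with size factors from the tested genes (log2 fold change -0.14, adjusted p = 0.102), after quantile normalisation (-0.14, adjusted p = 0.0899) or without NMS-873 replicate 3 (-0.19, adjusted p = 0.053). DERL1, which encodes Derlin-1, rose 1.30-fold. The start of TACC3, a mitotic spindle gene on the opposite strand chosen after its value was seen, lies 142 bases from that of TMEM129, and TACC3 fell, at a log2 fold change of -0.50 (adjusted p = 3.69e-16). Other neighbours at the 5′ end were not called in the same direction as their gene. AGPAT1, 258 bases from RNF5, fell (log2 fold change -0.27, limma adjusted p = 1.59e-05) where RNF5 did not pass. RNF139-AS1, 162 bases from RNF139 and at a mean count of 31.2, was at -0.30 and did not pass (adjusted p = 0.25). CTD-2256P15.2, 102 bases from MARCH6 and at a mean count of 17.4, was at -0.18 and did not pass (adjusted p = 0.626). RNF139 and MARCH6 rose. Of all genes tested, 33.0% fell.

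VIMP (ENSG00000131871.10; chromosome 15, 101811022 to 101817705, minus strand), selenoprotein S, is an ER membrane protein that binds VCP and the Derlins. It had 2339, 2281 and 2339 normalised counts with NMS-873, against 1098, 1084 and 1196 with DMSO. The lowest NMS-873 library was far above the highest DMSO library, and the rise of 2.06-fold (log2 fold change 1.04, SE 0.0562, adjusted p = 3.18e-47) was larger than that of 98.5% of all genes tested. SELK, which encodes selenoprotein K and whose product binds VIMP and the Derlins, rose 2.01-fold, with averages of 1209 ± 31.2 with NMS-873 and 601 ± 15.0 with DMSO. The genes whose course over the 6 libraries was nearest to that of VIMP, among 12078 compared by the Euclidean distance of centred log2 values, were DERL2 (distance 0.0487), WIPI1 (0.0800) and GOT1 (0.0974). DERL2, which encodes Derlin-2, rose 2.05-fold, with averages of 2005 ± 23.1 with NMS-873 and 980.5 ± 39.4 with DMSO. WIPI1 was at 2.07-fold and GOT1 at 2.01-fold. Genes picked for a small distance have like fold changes through that choice. For RNF5, the gene with the smallest change on the deposited scale (AUP1 and FAF2 changed less with size factors from the tested genes), the nearest were NOL10, SYTL3 and SMARCB1, at distances of 0.0274 to 0.0315.

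Promoters that respond to ER stress often carry an ER stress response element, in which a CCAAT box for the factor NF-Y stands near CCACG, where ATF6 binds. The 250 bases before the RefSeq start (GRCh38.p14) are shown for VIMP as the gene that changed most, for RNF5 as the one that changed least on the deposited scale, and for SELK and HERPUD1 as genes of the same pathway that rose. They lie at chr15:101277486-101277735 on the minus strand for VIMP, chr6:32178155-32178404 on the plus strand for RNF5, chr3:53891860-53892109 on the minus strand for SELK and chr16:56931892-56932141 on the plus strand for HERPUD1. Capitals mark CCAAT and CCACG on either strand, which read ATTGG and CGTGG on the other.
VIMP: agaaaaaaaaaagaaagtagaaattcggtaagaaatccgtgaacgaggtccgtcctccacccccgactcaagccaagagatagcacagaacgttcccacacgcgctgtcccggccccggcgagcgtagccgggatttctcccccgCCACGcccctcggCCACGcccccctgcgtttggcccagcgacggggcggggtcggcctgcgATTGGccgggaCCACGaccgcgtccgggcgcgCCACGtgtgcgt
RNF5: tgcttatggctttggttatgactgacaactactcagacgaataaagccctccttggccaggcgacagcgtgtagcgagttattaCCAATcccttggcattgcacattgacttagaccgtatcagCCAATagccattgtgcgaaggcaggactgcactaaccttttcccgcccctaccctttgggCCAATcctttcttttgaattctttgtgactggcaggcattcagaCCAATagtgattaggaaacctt
SELK: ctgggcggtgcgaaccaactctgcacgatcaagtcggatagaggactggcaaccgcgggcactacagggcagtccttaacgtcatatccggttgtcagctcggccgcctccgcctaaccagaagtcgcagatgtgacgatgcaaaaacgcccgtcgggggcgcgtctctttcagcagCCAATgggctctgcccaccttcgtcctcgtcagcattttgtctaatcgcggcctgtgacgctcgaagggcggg
HERPUD1: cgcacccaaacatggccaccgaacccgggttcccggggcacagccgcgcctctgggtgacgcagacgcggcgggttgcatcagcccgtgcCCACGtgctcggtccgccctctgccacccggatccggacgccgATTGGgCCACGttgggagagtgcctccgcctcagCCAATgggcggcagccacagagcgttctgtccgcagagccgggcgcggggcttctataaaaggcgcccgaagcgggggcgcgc

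RefSeq windows were found for 5 of the 9 genes, VIMP, RNF5, UBXN4, FAF2 and AUP1, and none for RNF139, RNF185, TMEM129 and MARCH6. None of the 5 held ERSE (CCAAT, 9 bases, then CCACG), which 0.0740% of 35116 windows of this length hold on either strand, ERSE-II (ATTGG, 1 base, then CCACG; 0.0513%), the UPRE core (TGA joined to CGTGG; 0.612%) or the composite site of ATF4 and C/EBP proteins (TGATG joined to CAAT; 0.216%). Only exact matches were searched, so a site that differs in any letter, in VIMP or another window, would not be found. The motifs overlap in letters, since both forms of ERSE hold a CCAAT box and the UPRE core ends in CGTGG. HERPUD1 held ERSE-II 117 bases before its start, and the windows of SELK and DERL2, which also rose, held none of these 4 motifs. In the VIMP window ATTGG and CCACG stood 6 bases apart, 44 bases before the start. This spacing, taken from the VIMP window after its sequence was seen, is held by 11 of the 35116 windows (0.0313%), VIMP among them. The windows of HERPUD1, SELK and DERL2 do not hold it. As its presence in VIMP was given by that choice, this share cannot be set beside those of the motifs chosen beforehand. RNF5 held 4 CCAAT boxes, at 166, 126, 66 and 22 bases before its start, VIMP 1, and UBXN4, FAF2 and AUP1 none, where 32.0% of all windows held at least 1. A match of letters is a description and was not tested for binding.

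UBXN4 (ENSG00000144224.12; chromosome 2, 136499189 to 136542625, plus strand), also called erasin, is an ER protein with a UBX domain that binds VCP. Its normalised counts were 1528, 1497 and 1655 with NMS-873, against 1349, 1387 and 1368 with DMSO. The treatments did not overlap, and UBXN4 rose 1.14-fold (log2 fold change 0.19, SE 0.0568, adjusted p = 0.00348). Without NMS-873 replicate 3, the highest library, it was at 0.14 and did not pass (adjusted p = 0.0522). UBQLN1, a ubiquitin shuttle that binds UBXN4, rose 1.12-fold.

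FAF2 (ENSG00000113194.8; chromosome 5, 175874629 to 175937075, plus strand), also called UBXD8, is a UBX protein of the ER and of lipid droplets. It had 2877, 2927 and 3009.5 normalised counts with NMS-873, against 3002, 3062 and 3119.9 with DMSO. The treatments overlapped, and the log2 fold change of -0.06 had a 95% interval of -0.17 to 0.05 (adjusted p = 0.37). With size factors from the tested genes the sign turned, to 0.03 (adjusted p = 0.426), and over the 17 alternatives the adjusted p lay between 0.187 and 0.558. UBAC2, which holds FAF2 in the ER, did not pass either, at 979 ± 87.0 with NMS-873 and 958 ± 17.0 with DMSO. INSIG1, a sterol regulator whose protein FAF2 brings to VCP, rose 10.5-fold.

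AUP1 (ENSG00000115307.12; chromosome 2, 74753772 to 74757066, minus strand) is a lipid droplet and ER protein that binds the ubiquitin-conjugating enzyme UBE2G2. Its normalised counts were 3928, 3922 and 4127 with NMS-873, against 4213, 4187 and 4260.1 with DMSO. All NMS-873 libraries were lower, yet the difference did not pass, at a log2 fold change of -0.08 with a 95% interval of -0.19 to 0.03 (adjusted p = 0.212). The sign depended on the scaling, with 0.01 under size factors from the tested genes (adjusted p = 0.763) and -0.10 after quantile normalisation, where it passed as lower (adjusted p = 0.0149). Over the 17 alternatives its adjusted p lay between 0.0149 and 0.763. UBE2G2 was 1.20-fold lower, at 1402 ± 52.3 with NMS-873 and 1687 ± 30.4 with DMSO (adjusted p = 1.97e-05).

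Gene models of RNF5 and AUP1 overlap genes on the opposite strand. The library kit keeps strand, but the sources used here do not state whether counting used it, and without it reads of a gene and its antisense partner cannot be told apart. AGER, the receptor for advanced glycation end products, shares 3186 bases with RNF5 and had 12.5% of its mean normalised count, at 54.1 with NMS-873 and 114.0 with DMSO (log2 fold change -1.09, adjusted p = 1.04e-11). HTRA2, a mitochondrial protease, shares 563 bases with AUP1 and had 21.4% of its mean count, with a log2 fold change of -0.17 (adjusted p = 0.0166). Rows with a read that overlapped the other 7 genes were limited to RNF185-AS1, at a mean of 0.171.

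**Figure D2:**
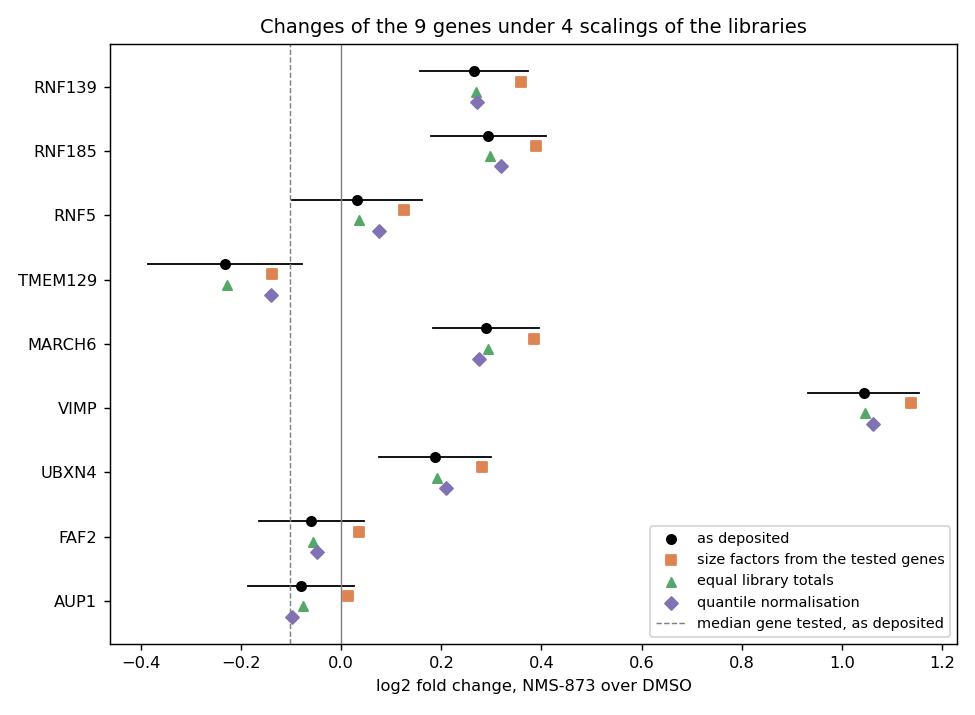
Log2 fold changes of the 9 genes, NMS-873 over DMSO (horizontal axis), under 4 scalings of the libraries; the lines are 95% intervals on the deposited scale, and the dashed line is the median gene at -0.10. VIMP lies between 1.04 and 1.14 under the 4 scalings, RNF139, RNF185, MARCH6 and UBXN4 stay above 0, TMEM129 stays below 0, and FAF2 and AUP1 lie on both sides of it.

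Size factors shift all genes alike, so that distances from the median gene hardly depend on them. On the deposited scale VIMP lay 1.15 above the median gene (log2), RNF185 0.40, MARCH6 0.39, RNF139 0.37, UBXN4 0.29 and RNF5 0.13 above it, and TMEM129 was at -0.13. FAF2 lay 0.04 and AUP1 0.02 above the median gene on this scale, but at -0.02 and -0.06 after quantile normalisation, which shifts genes by their level.

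Levels per length differ in order from the normalised counts. AUP1 was the highest of the 9 in both treatments, at 69.4 ± 2.03 FPKM with NMS-873 and 73.3 ± 0.647 with DMSO, and RNF139 came next, at 39.5 ± 1.05 with NMS-873 and 32.9 ± 1.47 with DMSO. TMEM129 was the lowest, at 4.48 ± 0.259 FPKM with NMS-873 and 5.26 ± 0.175 with DMSO. With NMS-873, VIMP ranked 3 of the 9, at 28.2 ± 0.409 FPKM, above FAF2, MARCH6, RNF185, RNF5 and UBXN4, and of these neighbours in order RNF5 and UBXN4 overlapped. With DMSO it ranked 7, at 13.7 ± 0.739 FPKM, below FAF2, MARCH6, RNF5 and RNF185 and above UBXN4, and there RNF5 overlapped with RNF185 and RNF185 with VIMP. MARCH6, which had the highest normalised count with NMS-873, was at 20.4 ± 0.847 FPKM with NMS-873 and 16.7 ± 0.582 with DMSO. The coefficient of variation between libraries lay between 0.883% (AUP1 with DMSO) and 6.05% (RNF5 with NMS-873).

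**Figure D3:**
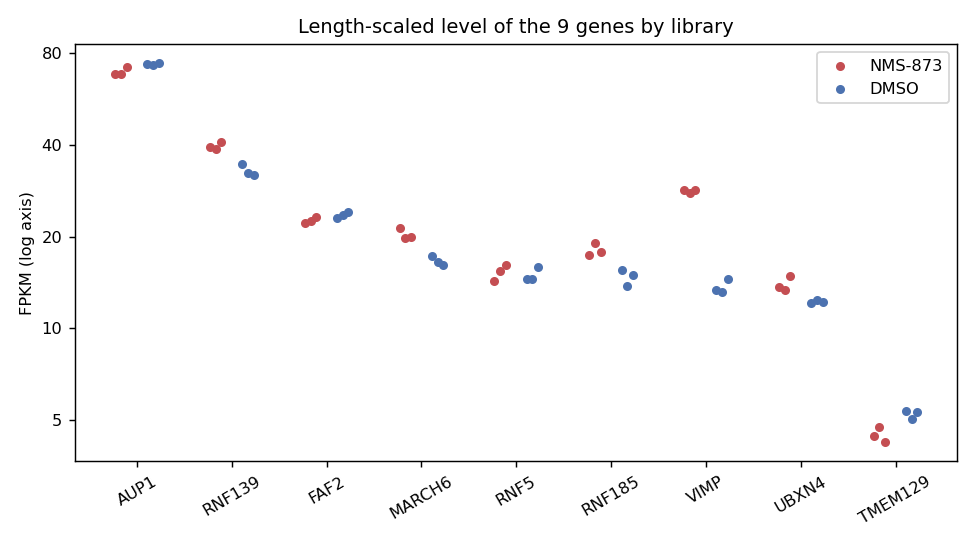
FPKM of the 9 genes in each library (vertical log axis), NMS-873 left of DMSO for each gene, with genes ordered by their DMSO mean; each point is a library. VIMP is at about 28.2 FPKM with NMS-873 and 13.7 with DMSO, while AUP1 stays the highest and TMEM129 the lowest in both treatments.

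As role groups, 3 of the 5 ligases rose and 1 fell, and 2 of the 4 recruiters rose and 0 fell in limma. Before adjustment at p under 0.05, and in voom, 0 recruiters fell as well. Among all genes tested, 14.9% rose and 33.0% fell, 47.9% in all. Summed over the 5 ligases, levels were 96.8, 97.6 and 98.9 FPKM with NMS-873, against 87.3, 82.2 and 84.0 FPKM with DMSO. Summed over the 4 recruiters they were 132, 132 and 138 FPKM with NMS-873, against 122, 122 and 125 FPKM with DMSO. Both sums were higher in every NMS-873 library. Without VIMP, the recruiters summed to 104, 104 and 109.6 FPKM with NMS-873, against 108, 109 and 110.2 FPKM with DMSO, and the treatments overlapped. The ratio of recruiters to ligases averaged 1.37 ± 0.0231 with NMS-873 and 1.45 ± 0.0513 with DMSO (SD, n = 3 each), a difference that did not pass the exact permutation test (two-sided p = 0.2, adjusted p = 0.2), and the smallest p it allows is 0.1. AUP1 set the direction of this ratio. With AUP1 left out, a choice made after the values were seen, it was 0.663, 0.652 and 0.671 with NMS-873, against 0.556, 0.597 and 0.604 with DMSO, and all NMS-873 libraries were higher. With VIMP left out instead, also chosen later, the ratio kept its direction. Its log2 difference was then -0.25 (exact permutation p = 0.1), against -0.083 with all 4 recruiters. VIMP made up 21.5%, 21.0% and 20.6% of the recruiters' FPKM with NMS-873, against 11.0%, 10.8% and 11.6% with DMSO.

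Of the HRD1 complex, the main ligase complex of the pathway, 6 of 9 genes tested rose and 0 fell in limma, with a median log2 fold change of 0.38. Before adjustment 7 had p under 0.05 as higher and 1 as lower, and voom called 6 higher and 0 lower. The rises numbered 8 with size factors from the tested genes and 5 with no variance trend or without NMS-873 replicate 3. By comparison, 14.9% of all genes tested rose and 33.0% fell, 47.9% in all, with a median of -0.10. HERPUD1, which organises the complex, was at 31315 ± 671 normalised counts with NMS-873 and 1774 ± 74.7 with DMSO. The ligase SYVN1 was at 3120.5 ± 177 with NMS-873 and 801 ± 14.0 with DMSO, and its partner SEL1L at 14609 ± 222 with NMS-873 and 5519 ± 148 with DMSO. The log2 fold changes of these 3 were 4.14, 1.96 and 1.40, and that of VIMP was 1.04. DERL2, also of this list and named above for its nearness to VIMP in course, was at 1.03. FAM8A1, at -0.24, was lower but did not pass (adjusted p = 0.0559), and it did pass without NMS-873 replicate 1, NMS-873 replicate 3 or DMSO replicate 3.

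The ER membrane holds further ligases, and of 12 tested 2 rose, 2 fell and 8 did not pass, with a median log2 fold change of 0.01. Among all genes tested, 14.9% rose and 33.0% fell. CGRRF1 (log2 fold change 0.32) and TRIM13, which also acts in autophagy of the ER (0.19), rose. RNF145, a sterol-responsive ligase, was 1.65-fold lower, at 1442 ± 22.1 normalised counts with NMS-873 and 2382 ± 87.2 with DMSO. RNFT2 was 1.29-fold lower at 76.7 ± 19.8 with NMS-873 and 97.3 ± 2.09 with DMSO, with libraries that overlapped. In the authors' own comparison TRIM13 and RNFT2 did not pass (adjusted p = 0.117 and 0.196). With size factors from the tested genes 4 rose and 1 fell. The higher calls numbered 1 without NMS-873 replicate 1 or 2 or DMSO replicate 1 or 3. The lower calls numbered 1 without NMS-873 replicate 2 or DMSO replicate 1 and 3 without NMS-873 replicate 3.

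Of 19 proteins that work with the 9, 6 rose and 3 fell, with a median of 0.03. Over all genes tested 14.9% rose and 33.0% fell, 47.9% in all. Those with the lowest adjusted p among the rises were SELK, UBE2J1, a conjugating enzyme of the ER membrane at 1.61-fold, and DERL1, which also stands in the HRD1 list. The falls were those of UBE2G2, of ERLIN2 at 1.19-fold lower and of ERLIN1 at 1.17-fold lower. ERLIN1 and ERLIN2 form a scaffold that also works with RNF170, a ligase outside the 9. VCP itself rose 1.17-fold, with averages of 21095.5 ± 174 with NMS-873 and 18070.3 ± 662 with DMSO, and UFD1L and NPLOC4 did not pass. With size factors from the tested genes 12 rose and 3 fell, and without DMSO replicate 2 4 rose. CFTR, a further client, averaged under 1 normalised count and was not tested. Of 11 tested protein clients of the 9, 8 rose and 1, TMEM173, fell, with a median of 0.67, and INSIG1 and SQLE were among the 3 with the lowest adjusted p. Without NMS-873 replicate 1 the lower calls numbered 2, TMEM173 and ATG4B.

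**Figure D4:**
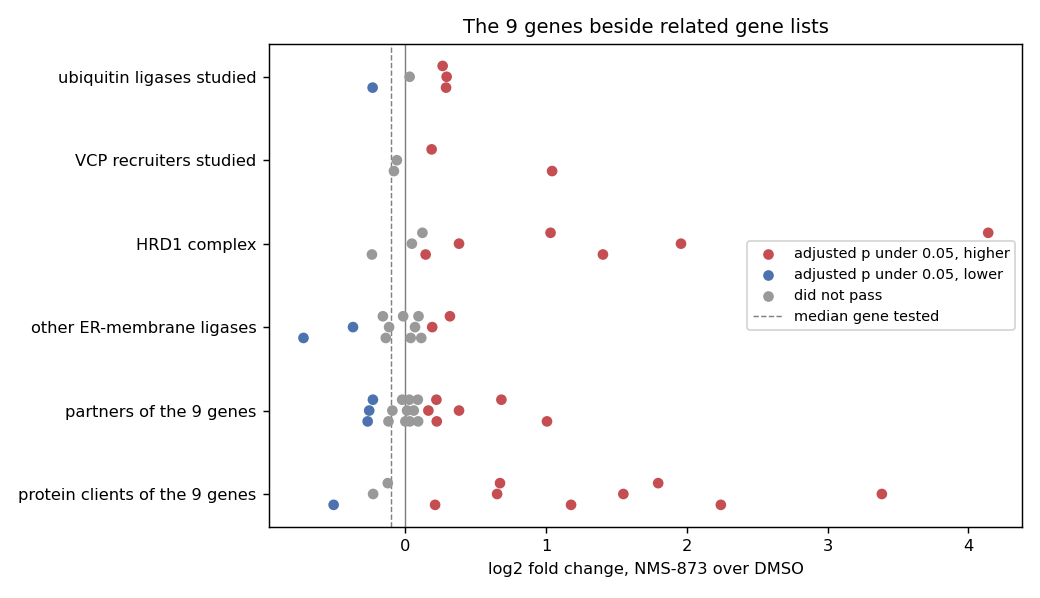
Log2 fold changes, NMS-873 over DMSO (horizontal axis), of the 5 ligases and 4 recruiters described here and of 4 related lists; each point is a gene, coloured by the limma call, and vertical offsets only separate points. The largest value among the 9 is 1.04 (VIMP), where the HRD1 complex reaches 4.14 and the clients 3.39.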

How the data were processed

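RNA-seq of 3 NMS-873 and 3 DMSO libraries was analysed, grouped by the sample titles. The deposited sample columns hold FPKM, which the header does not name and the values show. Per the file headers, the authors also deposited each gene's mean normalised count (a signal in reads after scaling) and, from their own comparison, its log2 fold change and its adjusted p-value. The submitters' processing notes name hg19, featureCounts 1.5.1 and DESeq2 1.16.1. Aligner and strand setting are not given in the sources used here.

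Normalised counts were rebuilt from FPKM and the mean count. Multiplied by the implied size factors, 100% of them lay within 0.001 of whole reads, and the median ratio over the 53 of 92 ERCC spike-in rows with a read in every library was equal between libraries to 2.2e-15, so the deposited scale rests on the spike-in RNA. Genes with a mean of at least 10 (14889 of 57820) were tested across all genes in R 4.3.3 with limma 3.58.1, using log2(normalised count + 1), with an intensity trend, two-sided, Benjamini-Hochberg adjusted. Fold changes are on that scale, which understates low genes. The design assumed normalised counts, hence the rebuilding. The test was checked on simulated counts for 14889 genes: 50% of 50 genes changed 1.25-fold, 76% at 1.5-fold, 90% at 2-fold and 100% at 4-fold were recovered, and 7 of 14689 unchanged genes were called. The simulation gave all genes the same dispersion and changed far fewer genes than were called in the data.

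The 9 genes and the related lists were chosen with earlier results of these data known. Named genes are the 9, their partners and clients, overlapping genes, the 3 nearest in course, and in each list up to 3 of lowest adjusted p per direction; others are said to be chosen later, and some genes are not reported here. Without molecular identifiers, counting error understates the error of a read count.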

Additional observations from a re-analysis of the deposited data

How the results depend on the processing

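Of the 17 alternatives for each gene, VIMP, RNF139, RNF185 and MARCH6 kept their rise in all 17, UBXN4 in 16 and TMEM129 its fall in 14. With size factors from the tested genes, 3608 genes rose and 3273 fell over the whole table, 0 of the 9 fell, RNF5 passed at 0.13 (log2 fold change), TMEM129 did not at -0.14, FAF2 was at 0.035 and AUP1 at 0.014; of the other ER ligases 4 rose and 1 fell, 12 partners rose and 0 clients fell. With equal totals 5 partners and 2 clients fell. After quantile normalisation, TMEM129 was at -0.14, AUP1 passed at -0.10, and 1 other ligase, 5 partners and 0 clients fell. In the HRD1 complex 1 gene fell with a count minimum of 50 and with the replicate block. Of the other ligases 1 fell with no count minimum or no variance trend, and 1 rose on log2(FPKM + 0.1). Clients that fell numbered 0 with no variance trend and 2 with the replicate block. The cause of these shifts was not tested.

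Leaving out 1 library gave 0 to 1 of the 9 as fallen (0 without NMS-873 replicate 3), log2 fold changes of -0.010 to 0.077 for RNF5, -0.27 to -0.19 for TMEM129 and 0.14 to 0.22 for UBXN4, 0 to 1 fallen genes of the HRD1 complex, 1 to 2 risen and 1 to 3 fallen other ligases, and 1 to 2 fallen clients. Same-numbered libraries did not deviate together (correlations of 0.0394, -0.0253 and 0.0425), so the replicate block pairs by number only; with it 2352 genes rose and 5255 fell, and it changed no call among the 9. The 2 ratios gave an exact p = 0.25 with the block, the smallest that 3 pairs allow. With AUP1 left out, an alternative chosen after seeing the data, the log2 difference of the recruiter ratio turned to 0.18 (exact p = 0.1). With VIMP left out, chosen in the same way, that difference was -0.25 (exact p = 0.1). At this depth and number of libraries 76% of genes changed 1.5-fold were recovered in simulated counts for NMS-873 against DMSO. These were genes of any level tested, with the same set dispersion for all, and far fewer genes changed than in the data. The share is therefore not the sensitivity for the 9 genes, and small changes can be missed.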
